A study of Mus musculus with 8 samples.

Results

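The phagocyte NADPH oxidase is described here through 7 of the 54752 genes counted in right cerebral cortex. The genes were taken by symbol. Cybb, Cyba, Ncf1, Ncf4 and Rac2 encode parts of the enzyme complex, Hvcn1 encodes a proton channel that works beside it, and Nox4 encodes a related oxidase that is not specific to phagocytes. RNA was sequenced from 8 wild-type adult male C57BL/6 mice (C57BL/6J in the study's methods), 1 library per mouse, 3 weeks after surgery. In the 4 BCAS mice (bilateral carotid artery stenosis), a wire microcoil was wound around each common carotid artery, the narrower coil on the right, which lowers blood flow to the forebrain for as long as the coils stay. The 4 sham mice had the operation without coils. The narrower coil and the sampled cortex were thus on the same side, and no left cortex was compared here.

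The phagocyte oxidase moves electrons from NADPH inside the cell across a membrane to oxygen, which makes superoxide in the phagosome or outside the cell. The membrane core is a pair of proteins, gp91phox (Cybb) and p22phox (Cyba). Cytosolic proteins, among them p47phox (Ncf1) and p40phox (Ncf4), together with a Rac GTPase, join the core when the cell is stimulated. In brain the complex is best known from microglia, from macrophages at the borders and from infiltrating neutrophils and monocytes. PU.1 and interferon regulatory factors are known regulators of phagocyte oxidase genes.

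Promoter sequences are shown for the 3 members that open the account of the complex and have an entry in the RefSeq table (GRCm38.p6). Each is the 250 bases before the RefSeq transcript start, written 5′ to 3′ on the gene's strand, with matches to the motifs below in capitals. The entry for Nox4 was searched but is not printed. Ncf4, Rac2 and Hvcn1 were not analysed for promoter sequence here.
Cybb promoter, chrX:9469325-9469574, minus strand: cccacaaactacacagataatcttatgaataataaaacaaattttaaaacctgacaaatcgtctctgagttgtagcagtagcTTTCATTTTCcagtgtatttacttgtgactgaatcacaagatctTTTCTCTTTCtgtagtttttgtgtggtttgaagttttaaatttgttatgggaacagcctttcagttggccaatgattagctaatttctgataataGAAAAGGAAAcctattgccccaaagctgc
Ncf1 promoter, chr5:134229626-134229875, minus strand: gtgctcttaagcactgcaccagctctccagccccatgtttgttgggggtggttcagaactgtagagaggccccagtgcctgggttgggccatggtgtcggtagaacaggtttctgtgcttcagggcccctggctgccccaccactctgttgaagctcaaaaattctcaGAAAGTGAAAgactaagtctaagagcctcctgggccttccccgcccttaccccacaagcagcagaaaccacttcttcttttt
Cyba promoter, chr8:122432941-122433190, minus strand: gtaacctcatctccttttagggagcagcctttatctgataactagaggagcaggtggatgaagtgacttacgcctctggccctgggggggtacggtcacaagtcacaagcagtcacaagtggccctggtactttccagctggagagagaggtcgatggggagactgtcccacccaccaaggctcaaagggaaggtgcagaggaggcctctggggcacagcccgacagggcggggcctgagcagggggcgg

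Searches on both strands used the letters GAGGAA (the core of a PU.1 box), GAAANNGAAA (an interferon-stimulated response element) and GGAANNGAAA (an ETS-IRF composite element). The gapped patterns end in the same letters, GAAA, and no 2 matches overlapped in these windows. The Cybb window held 3 matches to GAAANNGAAA. One lay on the gene's strand at bases -29 to -20 before the start, and the others lay on the opposite strand at -124 to -115 and -168 to -159. The Ncf1 window held 1 such match, at -82 to -73. The Cyba and Nox4 windows held no match to any of the 3 letter patterns. Among all 32817 windows of this length in the table, 2.97% held GAAANNGAAA at least once and 4 windows (0.0122%) held it 3 or more times. The cut of 3 equals the number found in Cybb, whose window is among these 4. The windows were not matched for base composition, so these shares do not measure how unusual Cybb is. GAGGAA stood in 23.3% of windows and GGAANNGAAA in 2.30%. Base composition differed between the windows, with 34% G and C in Cybb, 54.4% in Ncf1 and 60% in Cyba. The windows lay outside the counted exons, and the Cybb and Nox4 windows each lay within an intron of the gene as counted, which starts further upstream. A match of letters describes the sequence and does not show a bound factor.

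The 8 libraries held 16759364 to 21794435 counts in genes. At this depth 3 counts correspond to at most 0.187 CPM. CPM here is the count scaled to a common library size, after TMM correction of the library sizes. A gene was called when the adjusted p (edgeR quasi-likelihood test, Benjamini-Hochberg over 17136 tested genes) was under 0.05 and the log2 fold change of BCAS over sham exceeded 1 in size. Of all genes, 1877 (11.0% of those tested) were called higher in BCAS and 220 (1.28%) lower. Without the fold threshold 19.2% passed in the upward direction and 12.8% in the downward direction. All 4 BCAS mice lay above all 4 sham mice in 18.5% of tested genes. The background of change was thus broad, and the median log2 fold change over all tested genes was -0.01.

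Of the 7 members, 6 passed the filter on low counts, each of them in all 8 libraries. All 6 were called higher in BCAS, against 11.0% of all tested genes. Their log2 fold changes ran from 3.68 for Ncf1 to 5.49 for Cybb, with a median of 4.02. Nox4 reached the filter's level in 0 sham and 3 BCAS libraries, was not tested with the others and is described separately. In each of the 7 genes the lowest BCAS mouse lay above the highest sham mouse, as in 18.5% of all tested genes. Summed over the members, the level was 14.7 to 18.8 CPM in sham mice and 87.2 to 553 CPM in BCAS mice.

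**Figure D1:**
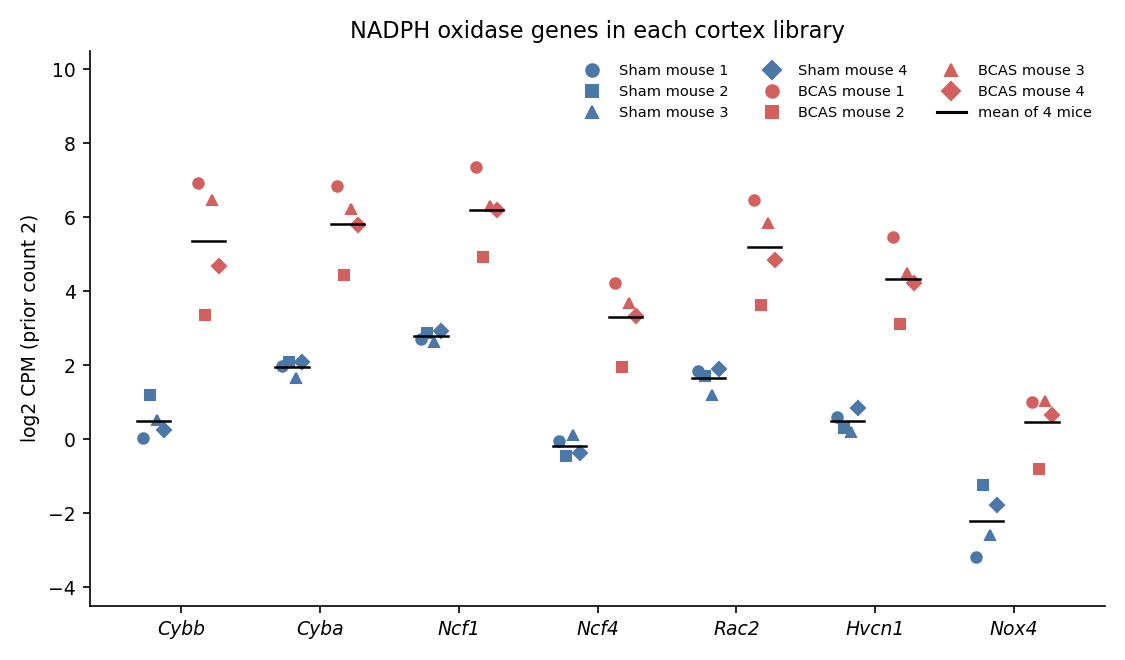
Level of each of the 7 genes in each library, as log2 CPM with a prior count of 2. Blue symbols are sham mice and red symbols BCAS mice, the symbol shape gives the mouse number, and bars are means of 4 mice; every red symbol lies above every blue one, and BCAS mouse 2 is the lowest red symbol throughout.

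Cybb, on chromosome X (9435252-9487771, minus strand, mm10), encodes gp91phox, the catalytic subunit that carries the electrons. It stood at 0.909, 2.18, 1.32 and 1.09 CPM in sham mice 1 to 4 and at 122, 10.1, 88.3 and 25.7 CPM in BCAS mice 1 to 4. In counts these were 16 to 35 reads per sham library and 197 to 2777 per BCAS library. BCAS mice 1 and 3 were therefore several times higher than mice 4 and 2, and even the lowest of them was above every sham mouse. The mean was 1.37 ± 0.565 CPM (SD, n = 4) in sham and 61.5 ± 52.6 CPM in BCAS. The log2 fold change of 5.49 (SE 0.82, adjusted p = 0.00327 in edgeR) was the highest among the tested members.

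Cyba encodes p22phox, which stabilises gp91phox in the membrane and carries the docking site for p47phox. It is on chromosome 8 (122424776-122432930, minus strand). Sham mice showed 3.81, 4.12, 3.03 and 4.10 CPM. BCAS mice showed 114, 21.6, 74.3 and 55.4 CPM. The sham mice were close together, and the BCAS mice spread over a range that began well above them. The log2 fold change was 4.14 (SE 0.47, adjusted p = 0.00176 in edgeR), with means of 3.77 ± 0.510 and 66.3 ± 38.5 CPM (SD, n = 4 each).

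Ncf1 encodes p47phox, the organiser that is phosphorylated on stimulation and brings the cytosolic proteins to the membrane. It lies on chromosome 5 (134220053-134229625, minus strand). Its sham values were 6.42, 7.18, 6.12 and 7.42 CPM, and its BCAS values were 164, 30.4, 79.1 and 73.1 CPM. The sham mice hardly differed, while BCAS mouse 2 had less than the other three. The log2 fold change was 3.68 (SE 0.46, adjusted p = 0.00203 in edgeR). Exons of Ncf1 share 11.1% of their bases with Gtf2ird2 on the opposite strand, a gene whose own log2 fold change was 0.03 (adjusted p = 0.850).

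Ncf4 encodes p40phox, which binds a phagosomal membrane lipid and helps sustain oxidase activity there. It lies on chromosome 15 (78244801-78262580, plus strand). It was the least counted of the tested members, with 15, 10, 17 and 11 reads in the sham libraries and 423, 73, 235 and 184 reads in the BCAS libraries. In CPM the sham mean was 0.778 ± 0.163 and the BCAS mean 11.3 ± 6.15 (SD, n = 4 each). The groups were apart in spite of the low sham counts, with a log2 fold change of 3.84 (SE 0.48, adjusted p = 0.00203 in edgeR).

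Rac2 encodes the Rac GTPase largely restricted to the haematopoietic (blood-forming) lineage, which switches on the assembled oxidase in its GTP-bound form. It is on the same chromosome as Ncf4 (15, 78559167-78572783, minus strand). Sham mice had 3.47, 3.18, 2.17 and 3.62 CPM, and BCAS mice had 88.1, 12.2, 56.9 and 28.6 CPM. As for Cybb, BCAS mice 1 and 3 were clearly higher than mice 4 and 2. The log2 fold change was 3.90 (SE 0.57, adjusted p = 0.00305 in edgeR).

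Hvcn1 encodes the voltage-gated proton channel, which lets protons follow the electrons so that the oxidase can keep working. It is on chromosome 5 (122206804-122242297, plus strand). Its values were 1.42, 1.12, 1.03 and 1.69 CPM in sham mice and 43.7, 8.55, 22.2 and 18.6 CPM in BCAS mice. All BCAS mice were above all sham mice, with a log2 fold change of 4.14 (SE 0.49, adjusted p = 0.00195 in edgeR). Of its exon bases, 44.2% are shared with Tctn1 on the opposite strand, and counting did not use strand. Tctn1 itself had a log2 fold change of 0.06 (adjusted p = 0.763).

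Nox4 encodes an oxidase that forms mainly hydrogen peroxide, needs p22phox but no cytosolic organiser, and is known from vessels and kidney. It lies on chromosome 7 (87246096-87398710, plus strand). The sham libraries held 0, 5, 1 and 3 reads and the BCAS libraries 43, 9, 36 and 27 reads. These are 0 to 0.312 CPM in sham and 0.464 to 1.94 CPM in BCAS, so that the groups did not overlap but BCAS mouse 2 lay just above sham mouse 2. The sham counts were at or near the limit of detection. The difference of mean log2 CPM was 2.68, with an exact two-sided permutation p of 0.0286, the smallest that 4 mice against 4 allow. It was 3.52 with a prior count of 0.5, so its size is set in part by the sham counts near 0. With every gene of at least 1 count tested, edgeR gave a log2 fold change of 3.35 (SE 0.72, adjusted p = 0.00791).

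The order of the BCAS mice was 1, 3, 4, 2 from high to low in the 6 tested members. In Nox4, mouse 3 was level with mouse 1. The same order was found in 69.3% of the 1877 genes called higher and in 5 of 12 microglia and macrophage markers. The members differed in how far the BCAS mice spread. The coefficient of variation over BCAS mice was 85.5% for Cybb and 71.8% for Rac2, against 54.6% for Ncf4 and 58.1% for Cyba.

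Levels of different genes were compared per kilobase of exon. In sham mice the mean level per length was 3.62 CPM per kb for Cyba, 1.85 for Ncf1 and 1.00 for Rac2. It was 0.385 CPM per kb for Ncf4, 0.369 for Hvcn1, 0.237 for Cybb and 0.0162 for Nox4. The ranges of Ncf4 and Hvcn1, and of Hvcn1 and Cybb, overlapped over the sham mice, whereas the other neighbours in this order did not overlap. Transcripts of the smaller core subunit thus stood well above those of the catalytic subunit in sham cortex. In BCAS mice the mean level per length was 63.8 CPM per kb for Cyba, 23.7 for Ncf1, 15.0 for Rac2 and 10.6 for Cybb. Hvcn1 followed at 6.53 CPM per kb, Ncf4 at 5.58 and Nox4 at 0.170. Neighbours down to Ncf4 overlapped in range, since the BCAS mice spread widely, but Cyba, Ncf1, Rac2 and Nox4 kept ranks 1, 2, 3 and 7 in each of the 8 libraries. Cybb ranked 4 in BCAS mice 1 and 3 and 6 in BCAS mice 2 and 4. Counted over exon bases shared with no other gene, a setting chosen after the data were seen, Hvcn1 stood at 0.662 CPM per kb in sham and 11.7 in BCAS and ranked 4 in both groups.

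**Figure D2:**
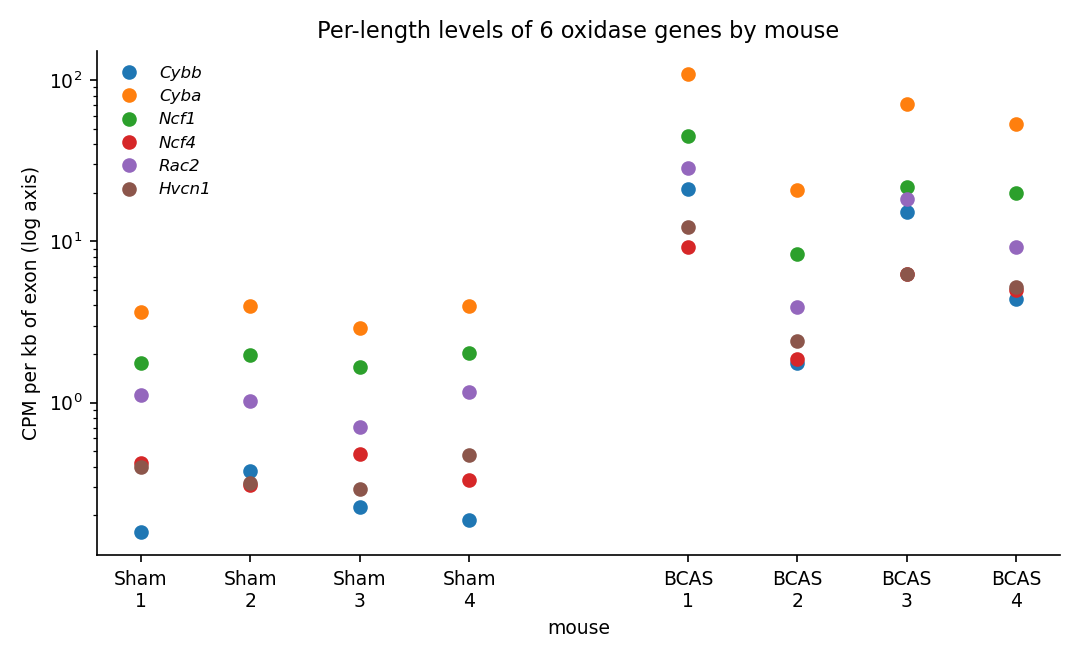
Level per kilobase of exon (CPM per kb, log axis) of the 6 tested members in each mouse; each point is 1 library and the colour gives the gene. Cyba, Ncf1 and Rac2 keep the top places in all mice, and Cybb is above Hvcn1 and Ncf4 in BCAS mice 1 and 3 and below both in BCAS mice 2 and 4.

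The amounts of change were compared between genes as log2 ratios within a library, in 6 pairs. The ratio of Cybb to Cyba was -1.94, -0.88, -1.14 and -1.82 across the sham mice, against 0.10, -1.08, 0.25 and -1.11 across the BCAS mice. It was higher by 0.99 on average, with overlap between the groups (exact permutation p = 0.114, adjusted p = 0.137). Ncf1 relative to Cybb was lower in BCAS without overlap (difference of log2 ratios -1.45, exact permutation p = 0.0286, adjusted p = 0.0571). Ncf4 relative to Cybb differed by -1.37 (exact permutation adjusted p = 0.129) and Hvcn1 relative to Cybb by -1.03 (exact permutation adjusted p = 0.143). Cybb relative to Nox4 differed by 2.19 (exact permutation p = 0.0286, adjusted p = 0.0571), but by 1.43 with a prior count of 0.5 (exact permutation p = 0.114). With 4 mice per group and 6 pairs, none passed 0.05 after adjustment.

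Of the other genes of the oxidase family and complex, those given here are Cybc1, Noxo1, Rac1 and genes too little counted to be tested. Cybc1, a chaperone needed for the gp91phox protein, rose by 0.76 on the log2 scale (SE 0.19, adjusted p = 0.0209 in edgeR), which is below the fold threshold. Its values in BCAS mouse 2 and sham mouse 3 were 18.6 and 19.0 CPM, so the groups overlapped. Noxo1, an organiser for non-phagocyte oxidases, showed 0.55 (adjusted p = 0.313 in edgeR), and another gene overlaps 70.4% of its exon sequence. Nox1, Nox3, Noxa1, Duox1, Duox2 and Duoxa1 had 0 to 10 reads per library, and Duoxa2 had 0 in every library.

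Rac1, the widely expressed Rac GTPase, stood at 306 to 336 CPM in sham mice and 332 to 389 CPM in BCAS mice. Its ranges overlapped, and its log2 fold change was 0.14 (SE 0.09, adjusted p = 0.238 in edgeR). Rac2 was 1.00 CPM per kb against 71.5 for Rac1 in sham mice and 15.0 against 79.0 in BCAS mice. Over exon bases shared with no other gene, Rac1 stood at 147 CPM per kb in sham mice and 162 in BCAS mice, with Rac2 as before. The log2 ratio of Rac2 to Rac1 was -6.42, -6.66, -7.20 and -6.38 across the sham mice, against -2.14, -4.76, -2.66 and -3.56 across the BCAS mice. The ranges lay apart, and the difference was 3.39 (exact permutation p = 0.0286, adjusted p = 0.0571). Rac1 shares 51.4% of its exon bases with Daglb on the opposite strand, which itself rose by 0.61 on the log2 scale (adjusted p = 0.0207 in edgeR), so both the level and the change of Rac1 are uncertain.

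Among 12 genes of the signals that switch the oxidase on, 9 were called higher, none was called lower, and the median log2 fold change was 2.49, against -0.01 and 11.0% called higher over all tested genes. Dock2 and Vav1, exchange factors that load Rac with GTP, rose most, by 3.92 (SE 0.43, adjusted p = 0.00163 in edgeR) and 3.61 (SE 0.46, adjusted p = 0.00212). Rap1a, a small GTPase that associates with the membrane core, had 0.46 (SE 0.16, adjusted p = 0.0583 in edgeR). Prkcb, a protein kinase C that phosphorylates p47phox and is also abundant in neurons, fell, with a log2 fold change of -0.72 (SE 0.21, adjusted p = 0.0304 in edgeR). Its level was 490 to 671 CPM in sham mice and 225 to 463 CPM in BCAS mice, without overlap.

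Genes that remove or use superoxide and peroxide were read in the same fit. Of 8 tested, 2 were called higher (11.0% over all tested genes) and none was called lower, 5 passed adjusted p upward (19.2% over all) and 1 downward (12.8%), and the median log2 fold change was 0.65. Prdx6, a peroxiredoxin that reduces peroxides, stood between 167 and 201 CPM in sham mice and between 274 and 740 CPM in BCAS mice, a rise of 1.40 on the log2 scale (SE 0.25, adjusted p = 0.00622 in edgeR). Sod3, the extracellular superoxide dismutase, rose by 1.08 (SE 0.25, adjusted p = 0.0152 in edgeR), with BCAS mouse 2 inside the sham range. The mitochondrial enzyme Sod2 fell, with a log2 fold change of -0.38 (SE 0.12, adjusted p = 0.0428 in edgeR), and all BCAS mice were below all sham mice. The cytosolic enzyme Sod1 had -0.12 (SE 0.08, adjusted p = 0.281 in edgeR). Mpo, the neutrophil enzyme that turns peroxide into hypochlorous acid, had 0 to 5 reads per library and was not tested.

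**Figure D3:**
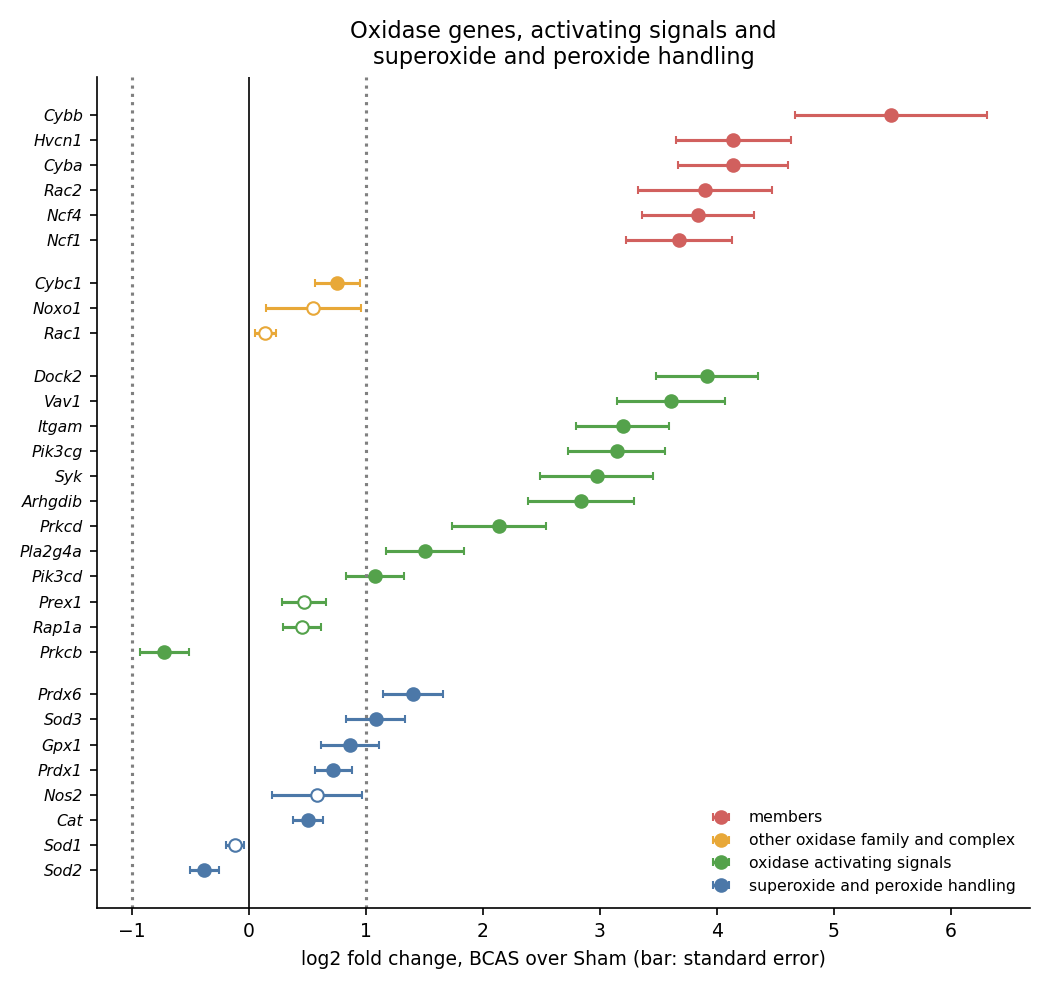
Log2 fold change of BCAS over sham (points) with its standard error (bars) for tested genes of 4 lists, from the edgeR fit of 4 sham and 4 BCAS mice. Filled points have an adjusted p under 0.05 and dotted lines mark a log2 fold change of 1 in either direction; the members run from 3.68 to 5.49, while the superoxide and peroxide genes stay between -0.38 and 1.40.

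Marker genes of the cells that carry the oxidase moved with the members. All 12 microglia and macrophage markers were called higher (11.0% over all tested genes), with a median log2 fold change of 3.29. Cd68, a lysosomal protein of phagocytes, rose by 4.83 and Trem2, a lipid-sensing receptor, by 4.34, whereas Tmem119 and P2ry12, markers of resident microglia at rest, rose by 2.48 and 1.80 (adjusted p = 0.00147 to 0.00305 in edgeR). The summed level of the list was 374 to 455 CPM in sham mice and 1676 to 6492 CPM in BCAS mice. Itgam, which is in this list and among the activating signals, shares 68.7% of its exon bases with an overlapping gene. In whole tissue, more cells of a type and more RNA per cell cannot be told apart.

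Each member was also read relative to the mean log2 CPM of these 12 markers in the same library, a ratio that cannot separate these either. The markers' own log2 fold changes ran from 1.80 to 4.83, a range that held every tested member except Cybb. Cybb stood at -4.21, -3.26, -3.72 and -3.99 in sham mice and at -1.52, -3.12, -1.0 and -2.76 in BCAS mice. BCAS mouse 2 was thus close to sham mouse 2, and BCAS mice 1 and 3 were far above. The difference of 1.69 had an exact permutation p of 0.0286, the smallest possible, and an adjusted p of 0.0667 over the 7 members. Cyba differed by 0.71 and Hvcn1 by 0.66, also without overlap (exact permutation adjusted p = 0.0667 each). For Ncf1 the difference was 0.25 (exact permutation adjusted p = 0.150), for Ncf4 0.32 (adjusted p = 0.280), for Rac2 0.36 (adjusted p = 0.343) and for Nox4 -0.49 (adjusted p = 0.343). The sign for Nox4 turned with a prior count of 0.5, to 0.34.

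The members were also read relative to 8 homeostatic microglia markers. All 8 of these markers were called higher (11.0% over all tested genes), with a median log2 fold change of 2.37. Among them were 1.67 for Sall1, a transcription factor of microglia, 1.80 for P2ry12 and 2.79 for Gpr34, a lipid receptor of microglia. The members rose beyond this list by 2.56 for Cybb, 1.57 for Cyba, 1.53 for Hvcn1, 1.22 for Rac2, 1.19 for Ncf4 and 1.12 for Ncf1. Each had an exact permutation p of 0.0286 and an adjusted p of 0.0333, with all 4 BCAS mice above all 4 sham mice. Nox4 differed by 0.37 with overlap (exact permutation adjusted p = 0.486). The median log2 fold change of the 12 microglia and macrophage markers, 3.29, was also above the 2.37 of this list. Standing above it was thus not particular to the members. The unadjusted p of Cybb, Cyba and Hvcn1 was the same, the smallest possible, against both marker lists, and the adjusted p depends on how many of the 7 members reach it.

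**Figure D4:**
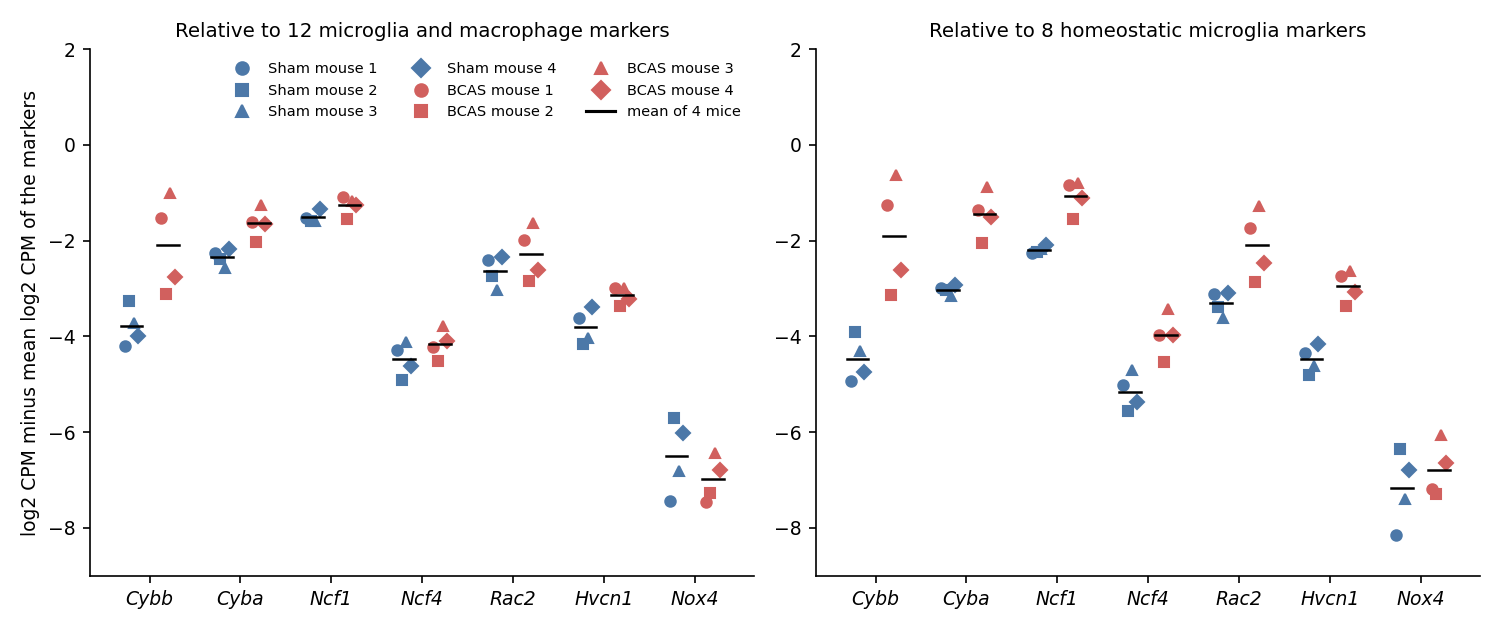
Log2 CPM of each member minus the mean log2 CPM of 12 microglia and macrophage markers (left) or 8 homeostatic microglia markers (right), per library. Blue symbols are sham and red symbols BCAS mice, and bars are means of 4; on the left Ncf1, Ncf4, Rac2 and Nox4 overlap between groups, and on the right Nox4 alone overlaps.

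Markers of other immune cells, only some of which are known to carry the oxidase, were read in the same libraries. Of 12 neutrophil and monocyte markers, 2 were tested and both were called higher: Ly6c2 and Ccr2, both markers of inflammatory monocytes, by 6.48 and 4.65 (adjusted p = 0.00839 and 0.00910 in edgeR). Ly6c2 has a close copy, Ly6c1, so its counts are uncertain. Both passed the filter on low counts only with the help of the BCAS libraries, where they were high, so that being tested and being called were not independent. DESeq2 was run without this filter but with its default filter on the mean count, which also draws on the BCAS libraries. Its calls are thus no separate support. It called 6 of the 12 higher, limma-voom 1 and limma on log2(CPM + 1) 2. The neutrophil genes S100a8 and S100a9 had 0 to 6 reads per sham library, against 43, 5, 69 and 12 reads for S100a8 and 92, 7, 98 and 16 for S100a9 in BCAS mice 1 to 4. Cxcr2, a chemokine receptor of neutrophils, had 0 to 2 reads per sham library and 71, 0, 65 and 4 in BCAS mice. The neutrophil granule genes Camp, Ngp and Mpo stayed at 0 to 4 reads per sham library and 0 to 8 per BCAS library. Ly6g and Elane were at 0 in every library. The summed level of this list was 0.965 to 1.83 CPM in sham mice and 3.86 to 85.0 CPM in BCAS mice. Of 9 lymphocyte markers, 2 were tested and both were called higher, Cd8a, a marker of cytotoxic T cells, by 5.77 and Cd79b, a part of the B-cell receptor, by 3.48 (adjusted p = 0.00617 and 0.00938 in edgeR). These too passed the filter only through the BCAS libraries, and DESeq2 called all 9 higher, limma-voom and limma 2 each. The list's summed level was 0.915 to 1.75 CPM in sham mice and 3.76 to 59.8 CPM in BCAS mice. Ccr2 had 40.5, 2.01, 24.1 and 6.70 CPM in BCAS mice 1 to 4. Cybb showed the same order of mice, as did 69.3% of the 1877 genes called higher. The part of these cells in the members' change was not tested.

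For Nox4, markers of vessel cells are given beside it. None of 7 endothelial markers was called in edgeR, DESeq2 or limma (in edgeR, 11.0% of all tested genes were called higher). In edgeR, 2 had an unadjusted p under 0.05. The same number passed an adjusted p under 0.05 upward (19.2% over all), Cdh5 at 0.87 and Pecam1 at 0.58. The list's median was 0.39. Kdr and Flt1, receptors for vascular growth factor, had 0.10 and 0.17. Of 9 mural and fibroblast markers 4 were called higher (11.0% over all tested genes), with a median of 1.00. The matrix genes Col1a1 and Lum rose by 3.27 and 3.13, while Acta2 and Rgs5, of smooth muscle and pericytes, had 0.20 and 0.03 (adjusted p = 0.754 and 0.840 in edgeR). The summed level of this list was 328 to 377 CPM in sham mice and 437 to 960 CPM in BCAS mice, and its part in Nox4 was not tested.

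Neuronal markers, which define the labelled tissue, were present in all libraries at a summed 9219 to 10665 CPM in sham mice and 3616 to 7818 CPM in BCAS mice. Of 8, 6 had an adjusted p under 0.05 in the downward direction (12.8% over all tested genes) and 1 was called lower (1.28% over all). The median log2 fold change was -0.74, and 0 to 4 were called when 1 mouse was left out. Snap25, a synaptic vesicle fusion protein, had -1.07 and Rbfox3, the gene of NeuN, -0.91 (adjusted p = 0.0172 and 0.0115 in edgeR), while Gad1 had -0.53 (adjusted p = 0.0361) and Map2 -0.46 (adjusted p = 0.0611). The part of this shift in the members' change was not tested.

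The genes whose profile over the 8 libraries lay nearest to Cybb, by root-mean-square difference of log2 CPM relative to the sham mean, were Siglec1 (0.35), Slfn1 (0.45), Fcgr4 (0.45), Ifi213 (0.47) and Cd300lb (0.48). Siglec1 encodes a sialic-acid receptor of macrophages and Fcgr4 an activating receptor for immunoglobulin G. Slfn1 and Ifi213 belong to families of close copies, between which reads may be split. Siglec1 lay 6.78, 3.08, 5.90 and 4.87 above its sham mean in BCAS mice 1 to 4 on the log2 scale, where Cybb lay 6.44, 2.86, 5.97 and 4.19 above its own. The 2 genes thus differed by less than 1 log2 unit in each of these mice.

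Nearest to Nox4 were Tagap (0.23), Mamdc2 (0.36), Gm38158 (0.43), Susd3 (0.43) and Clic1 (0.43), over the same 8 libraries. Tagap lay 3.47, 1.68, 3.00 and 2.73 above its sham mean in BCAS mice 1 to 4, and Nox4 lay 3.20, 1.40, 3.24 and 2.86 above its own. The Nox4 profile rests on 9 to 43 reads per BCAS library and on 0 to 5 per sham library. Likeness of profile is a description over libraries that share the same 2 groups.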

How the data were processed

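Paired-end RNA-seq reads of 8 cortex libraries had been trimmed (Trim Galore), aligned to mm10 (HISAT2) and sorted (SAMtools 1.9) by the authors. The deposited values are raw counts per gene from featureCounts. The file headers name version 2.0.1 with the GENCODE vM20 annotation and no strand option, whereas the submitters' processing notes name version 1.6.3, so version and annotation follow the headers here. Symbols were matched by gene ID for 54723 of 54752 genes, and 0 rows named no gene.

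Libraries were grouped by title. Counts were tested with edgeR 4.0.16 in R 4.3.3 (TMM, filterByExpr with minimum 10 and total 15, quasi-likelihood F-test, Benjamini-Hochberg), in place of the limma test named in the study's methods, since the files hold counts. The scripts were tested on simulated data. Single values and ratios were compared by exact two-sided permutation over 70 arrangements, on log2 CPM with a prior count of 2. Levels per length used the exon length in the files. Limma 3.58.1 and DESeq2 1.42.0 were alternative tests, beside other scalings, filters and leaving out each mouse.

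The members and gene lists were chosen with earlier results of these data known. Genes are named by rule: the members, tested genes of the oxidase family, the 2 largest and 2 smallest fold changes of each other list, and the 5 nearest profiles to Cybb and Nox4. Itgam, Tctn1, Gtf2ird2 and Daglb are named for shared exons, and untested or zero-count genes, Cdh5, Ccr2, S100a8, S100a9, Cxcr2, Camp and Ngp as they bear on a count, chosen after their values were seen. Some genes that the rule selects are not reported here. Each mouse gave 1 library, and intervals of spread are between mice.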

Additional observations from a re-analysis of the deposited data

How the results depend on the processing

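The 6 tested members stayed called higher under each of the 102 alternative fits run on them (17 each: 3 scalings, 2 filters, DESeq2, limma-voom, limma on log2(CPM + 1), the replicate block and leaving out each of the 8 mice). Cybb ranged from 4.19 to 5.86 on the log2 scale, with an adjusted p of up to 0.0492. The number of genes called was 5490 without the fold threshold, 2683 with DESeq2, 1577 with at least 10 counts in every library, and 1644 to 2967 when 1 mouse was left out, the highest without BCAS mouse 2, against 2097. The number called lower moved more. It was 86 without sham mouse 1, 559 without BCAS mouse 2 and 147 with library size alone, against 220.

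Same-numbered sham and BCAS mice did not deviate together (correlations of -0.10 to 0.00), so the numbers were not taken as pairs. With a replicate block 1809 genes were called, and the members' log2 fold changes were 3.45 to 5.01 (adjusted p = 0.00492 to 0.0150 in edgeR).

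Nox4 differed by 2.35 to 3.10 when 1 mouse was left out, and the exact permutation p was 0.0571 without sham mouse 1, 3 or 4 and 0.0286 without each other mouse in turn. In 5 of these fits Nox4 passed the filter, but only through its BCAS libraries, so edgeR's values there are no separate support. DESeq2, whose default filter on the mean count also draws on the BCAS libraries, gave 3.41 (adjusted p = 0.000168).

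Leaving out 1 mouse moved the number of called genes to 1 to 3 for superoxide and peroxide handling, 2 to 5 for neutrophil and monocyte markers, 2 to 6 for lymphocyte markers, 0 to 1 for endothelial markers and 0 to 4 for neuronal markers, each time highest without BCAS mouse 2 (neutrophil, monocyte and lymphocyte genes entered these tests through BCAS libraries). The count for superoxide and peroxide handling was 1 without sham mouse 4 or BCAS mouse 1, that for neutrophil and monocyte markers 4 without sham mouse 3, that for lymphocyte markers 4 without sham mouse 3 and 5 without any other sham mouse, and that for neuronal markers 0 without sham mouse 1 or 4 or BCAS mouse 1 or 4. Relative to homeostatic instead of all microglia and macrophage markers, the differences were 2.56 (Cybb), 1.57 (Cyba), 1.12 (Ncf1), 1.19 (Ncf4), 1.22 (Rac2), 1.53 (Hvcn1) and 0.37 (Nox4), and that of Nox4 with a prior count of 0.5 was 0.34, both against -0.49. The causes were not tested.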
